A study of Gallus gallus with 48 samples.

Results

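The lungs of lowland chickens kept at 3300 m were compared with the lungs of lowland chickens kept at 670 m. The comparison takes the 3 lung libraries with the code HLC and the 3 with the code LC, which are 6 of the 48 RNA-seq libraries of the series, and covers every gene of the deposited table. The other libraries come from brain, heart and liver and from Tibetan chickens, again 3 to a group. HLC are lowland chickens at 3300 m and LC are lowland chickens at 670 m, while TC and LTC are Tibetan chickens at 3300 m and 670 m and are used here only beside the lowland groups. LC is a lowland bird at its own altitude, and the code HLC was read from its prefix and the altitude in the sample labels, since no source spells it out. The sources used here give no breed, sex or age of the birds and not how long they lived there. No transgene, deletion or drug is stated for any group. Whether each of the 3 libraries stands for a bird of its own is not stated, so the spread that p-values rest on may be technical. Altitude cannot be told apart from place, feed, housing or day of sampling. The question, as far as the labels state it, is which genes differ in the lung of a lowland bird between a high and a low place.

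The bird lung is a rigid organ in which air flows one way through fine parabronchi, whose walls carry the air and blood capillaries where gas is exchanged. Between the epithelium and the capillaries lie fibroblasts, smooth muscle, macrophages and, around the bronchi, lymphoid tissue with T and B cells. Thin air constricts lung arteries, turns on genes of the hypoxia-inducible factor and can turn on genes of the immediate early and cellular stress response, which are transcribed within minutes of a stimulus.

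Expression was given as FPKM, fragments scaled by transcript length and by the number of mapped fragments, so that levels of different genes can be compared per length. Of 17108 genes in the table, 11601 reached 1 FPKM or more in 3 or more of the 12 lung libraries and were tested with limma on log2(FPKM + 1). A fold change here is a difference between group means on that log2 scale, which understates the change of genes with low FPKM, and a gene is past the threshold when its Benjamini-Hochberg adjusted p is under 0.05. The 2 Tibetan groups were in the same fit and lent their spread to it. Only 1183 genes of the table (6.91%) could be given a symbol, from the readable part of a supplementary table of the study, and that table lists genes of genome regions under selection, so the named genes are no sample of the genome.

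The 6 libraries summed to between 452395 (HLC replicate 3) and 572875 FPKM and had 10824 to 11149 genes at or over 1 FPKM. The number of reads is unknown. The commonest ratio of low FPKM values put the depth of the other 5 libraries at 0.812 (LC replicate 2) to 1.13 times (HLC replicate 3) that of HLC replicate 1. These depths are rough, as that ratio held for 2.29% (HLC replicate 2) to 18.3% (LC replicate 3) of the genes compared. Libraries of the same group correlated at 0.959 to 0.964 in HLC and 0.945 to 0.969 in LC (Pearson r over genes), and no pair of libraries was identical. LC replicate 2 stood nearer to the 3 HLC libraries (0.948 to 0.959) than LC replicate 1 did (0.925 to 0.932), and correlated with LC replicate 1 at 0.945. HLC replicate 3 held genes of striated muscle and heart. Their 7 markers, among them the Z-disc protein ACTN2 and the myosin-binding protein MYBPC1, summed to 73.97 FPKM there, against 1.22 and 1.72 FPKM in the other HLC libraries and 1.08 to 1.22 FPKM in LC libraries (779.3 FPKM, the median of heart libraries). ACTN2 alone had 31.8 FPKM in HLC replicate 3 and at most 0.371 FPKM in the other 5 libraries. The heart libraries did not hold all of these genes, as MYBPC1 had 26.15 FPKM in HLC replicate 3 and a median of 0.252 FPKM in heart. RYR2 had 1.58 FPKM in HLC replicate 3 and a median of 85.83 FPKM in heart. Which tissue these transcripts came from was not tested. Results are therefore also given without HLC replicate 3.

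In the lung of lowland chickens, 451 of 11601 genes (3.89%) were past the threshold. There were 159 genes (1.37%) higher and 292 genes (2.52%) lower at 3300 m. Of these, 57 higher and 123 lower genes differed by at least 1 on the log2 scale. Over all genes tested the median log2 fold change was 0.00. In 26 of the lower genes the 3 HLC libraries, and in 10 of the higher genes the 3 LC libraries, were all under 1 FPKM, so these genes passed the filter only through other libraries. The genes that were lower had less abundant transcripts, with a median level of 6.59 FPKM, than the genes that were higher, with a median of 26.7 FPKM. In all 451 genes the 3 HLC libraries lay wholly above or wholly below the 3 LC libraries, beside 26% of all genes tested. At an unadjusted p under 0.05 there were 2452 genes. The count fell to 264 genes without HLC replicate 1, 184 without HLC replicate 2, 155 without LC replicate 1 and 207 without LC replicate 3. It was 475 without LC replicate 2 and 334 without HLC replicate 3 (132 higher and 202 lower), and 271 of the 451 genes were past the threshold without HLC replicate 3.

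**Figure D1:**
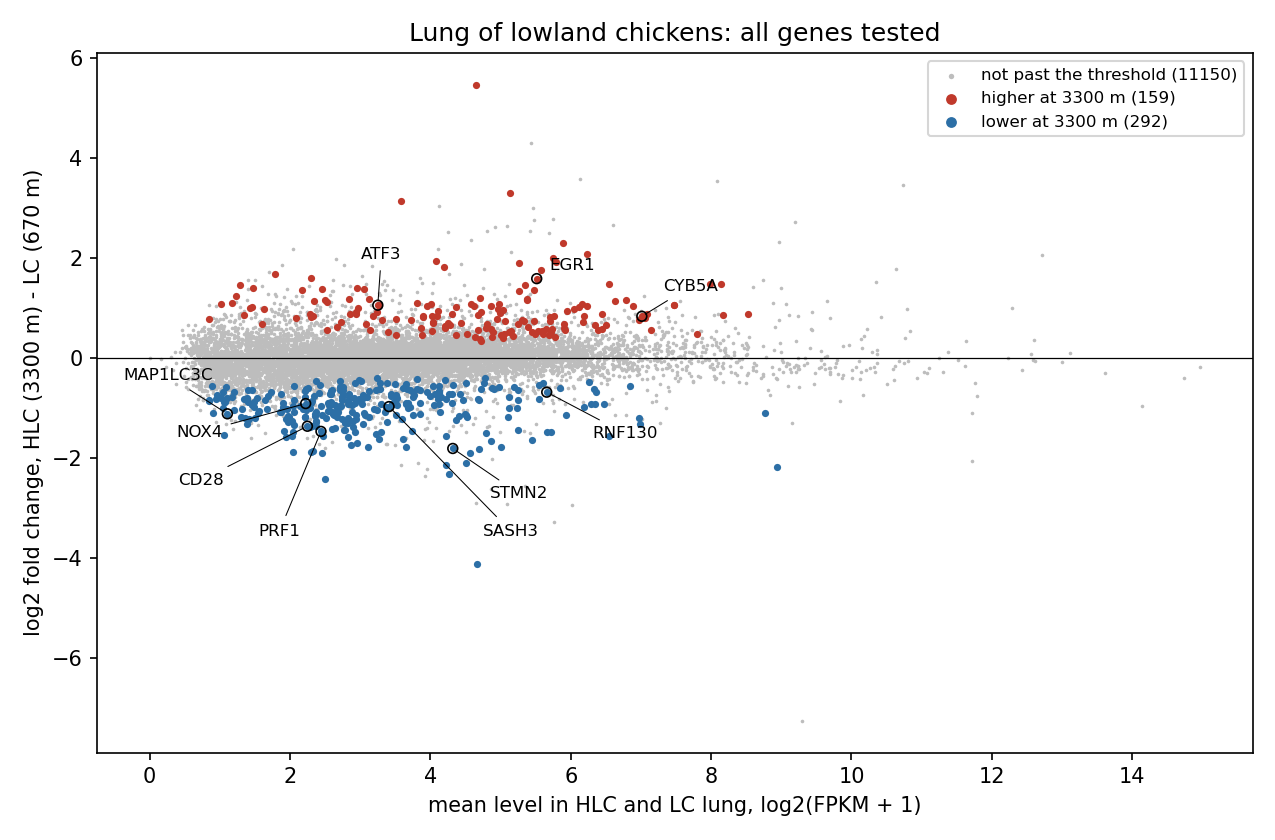
Log2 fold change between HLC and LC lung (vertical axis) against the mean level of the 6 libraries as log2(FPKM + 1) (horizontal axis) for the 11601 genes tested, with 159 higher genes in red, 292 lower genes in blue and some named genes circled. Points cluster around 0, and the blue points lie further to the left than the red ones.

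Several genes of lymphocytes were lower at 3300 m. Of 19 tested genes of a list of lymphocyte genes, 6 (31.6%) were lower and 0 were higher, beside 2.52% of all genes that were lower. The list had a median log2 fold change of -0.60, beside 0.00 over all genes. It was written with earlier results of these data known, so its share is a description and no test. In 17 of the 19 the fold change was negative, and in 12 of the 19 the HLC libraries lay wholly below the LC libraries, beside 13.6% of all genes. In bulk tissue, fewer cells of a type and less RNA per cell cannot be told apart.

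The largest difference of the list was in PRF1 (ENSGALG00000021211), which encodes perforin, the protein with which cytotoxic T and natural killer cells open pores in their targets. It had 1.52, 1.74 and 2.46 FPKM in HLC libraries, against 7.38, 7.04 and 6.45 FPKM in LC libraries. The highest HLC library was well under the lowest LC library, and the libraries of each group lay close together (1.91 ± 0.496 FPKM in HLC lung and 6.95 ± 0.470 FPKM in LC lung, SD, n = 3 each). PRF1 fell by 1.46 on the log2 scale (standard error 0.18, adjusted p = 0.00252 from limma) and stayed past the threshold whichever single library was left out (adjusted p up to 0.0126). CD28 (ENSGALG00000008669), the receptor that gives T cells their costimulatory signal, had 1.21, 1.22 and 2.56 FPKM in HLC libraries, against 7.99, 5.13 and 4.38 FPKM in LC libraries. All HLC libraries were below all LC libraries, with HLC replicate 3 nearest to them (log2 fold change -1.36 with a standard error of 0.29, adjusted p = 0.0254 from limma). That call was lost without HLC replicate 1 or 2 or LC replicate 1 (adjusted p between 0.0754 and 0.0982). SASH3 (ENSGALG00000003951), an adaptor protein of lymphocyte antigen receptor signalling, had 5.06, 7.42 and 6.16 FPKM in HLC libraries, against 15.00, 12.2 and 11.96 FPKM in LC libraries. The groups did not overlap (log2 fold change -0.97 with a standard error of 0.15, adjusted p = 0.00686 from limma), and SASH3 stayed past the threshold whichever single library was left out (adjusted p up to 0.031).

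The other 3 were smaller. GPR183 (ENSGALG00000016881), the receptor for oxysterols that guides the movement of B cells, T cells and dendritic cells, had 7.30, 8.78 and 6.19 FPKM in HLC libraries, against 12.02, 13.7 and 15.2 FPKM in LC libraries. The groups did not overlap (log2 fold change -0.80 with a standard error of 0.16, adjusted p = 0.0183 from limma), a call lost without HLC replicate 1 or 3 or LC replicate 3 (adjusted p between 0.0527 and 0.0706). TNFRSF9 (ENSGALG00000000543), a costimulatory receptor of activated T cells also known as 4-1BB, had 4.48, 3.65 and 4.23 FPKM in HLC libraries, against 8.05, 6.56 and 6.27 FPKM in LC libraries (log2 fold change -0.63 with a standard error of 0.12, adjusted p = 0.0193 from limma). Its call was lost without HLC replicate 2 or LC replicate 1 (adjusted p between 0.0717 and 0.0776). RLTPR (ENSGALG00000021442), an actin regulator that CD28 signalling needs in mouse and human T cells, was a gene of low level with 0.650, 0.650 and 0.792 FPKM in HLC libraries, against 1.57, 1.56 and 1.49 FPKM in LC libraries (log2 fold change -0.58 with a standard error of 0.14, adjusted p = 0.0417 from limma). This call was lost whichever single library was left out (adjusted p between 0.0728 and 0.118). RLTPR was under 1 FPKM in every HLC library, so it passed the filter only through other libraries. Each of these genes was lower in every HLC library than in any LC library.

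Other members of the list missed the threshold. SATB1, a chromatin organiser of developing T cells, differed by -0.74 (adjusted p = 0.052). CD226, an activating receptor of natural killer and T cells, differed by -0.76 (adjusted p = 0.0811). DOCK2, which drives the migration of lymphocytes, had 8.46, 13.2 and 11.9 FPKM in HLC libraries, against 18.6, 15.7 and 14.6 FPKM in LC libraries (-0.52, adjusted p = 0.0924). The inhibitory receptor CTLA4 differed by -0.60 (adjusted p = 0.195) and THEMIS, a protein of T cell selection, by -0.56 (adjusted p = 0.122). The B cell linker BLNK differed by -0.14 (adjusted p = 0.552) and the plasma cell regulator BLIMP-1 by -0.24 (adjusted p = 0.484). LSP1, an actin-binding protein of many leukocytes, had a positive value (0.47, adjusted p = 0.299). With HLC replicate 3 left out, 4 members were past the threshold. The count was 3 without HLC replicate 1, HLC replicate 2 or LC replicate 1, and 5 without LC replicate 2 or 3. It was 3 with a filter for a mean of at least 5 FPKM, which removed members of low level. In the fit of all 48 libraries the count was 4, as with only the 6 HLC and LC libraries. SASH3 (adjusted p = 0.158 from limma), GPR183 (0.109), TNFRSF9 (0.194) and RLTPR (0.29) were not past the threshold with all 48. Only PRF1 and CD28 of the members called in the main fit were. The count of 4 with all 48 libraries thus includes members that missed the threshold in the main fit. Of 9 marker genes of lymphocytes, 7 had an ID, and 7 of 7 were above 0 in every library. Their summed level was 24.0 to 32.2 FPKM in HLC libraries and 46.8 to 60.1 FPKM in LC libraries. Since these markers include PRF1, CD28 and SASH3, they are no separate measure of cell number.

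**Figure D2:**
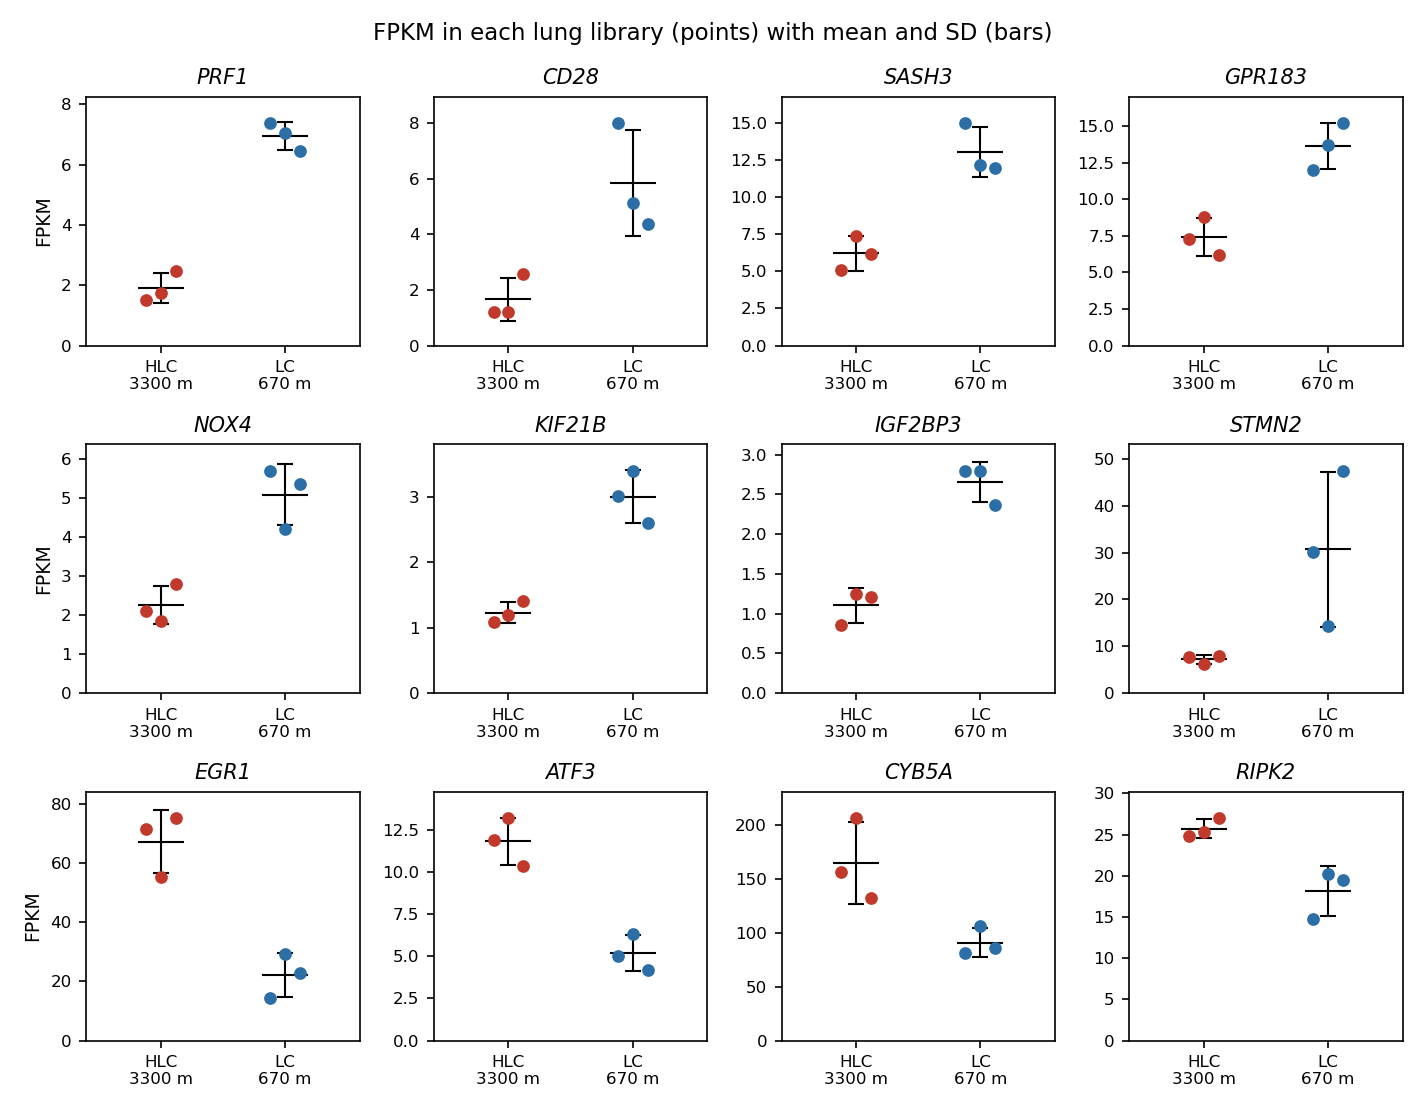
FPKM (vertical axes, each from 0) of 12 genes past the threshold in the 3 HLC libraries (red, left) and the 3 LC libraries (blue, right), with the mean and SD of each group as bars. In each of the 12 panels the groups do not overlap. Relative to the height of the panel, the LC libraries spread most in STMN2 and CD28.

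Of 12 tested genes of macrophages and other myeloid cells, 1 was lower (8.33%, beside 2.52% of all genes), 0 were higher, and the median log2 fold change was -0.15. The lower one was CD44, the receptor for hyaluronan, which lymphocytes and many other cells carry as well. It had 21.8, 31.8 and 33.4 FPKM in HLC libraries, against 49.3, 45.8 and 40.3 FPKM in LC libraries (log2 fold change -0.64 with a standard error of 0.15, adjusted p = 0.0427 from limma). The groups were close, and the call was lost without HLC replicate 1 or 2 or LC replicate 1, 2 or 3 (adjusted p between 0.0677 and 0.141). WDFY4, which dendritic cells need to present antigens of engulfed cells in mice, missed the threshold with 1.91, 1.73 and 2.34 FPKM in HLC libraries, against 4.40, 4.48 and 3.45 FPKM in LC libraries (-0.77, adjusted p = 0.0505). C3AR1, the receptor for the complement peptide C3a, had 5.10, 7.52 and 10.5 FPKM in HLC libraries, against 17.3, 10.98 and 12.3 FPKM in LC libraries (-0.77, adjusted p = 0.0786), and was past the threshold when HLC replicate 3 was left out (-0.99, adjusted p = 0.0334 from limma). The scavenger receptor CD36 and the macrophage glycoprotein GPNMB differed by -0.24 (adjusted p = 0.826) and by 0.11 (adjusted p = 0.895). C17orf62, which in mice and humans is a chaperone of the phagocyte NADPH oxidase, was in no list and was lower, with 11.1, 9.73 and 12.1 FPKM in HLC libraries, against 18.8, 17.9 and 17.2 FPKM in LC libraries (log2 fold change -0.67 with a standard error of 0.13, adjusted p = 0.0217 from limma). Its call was lost without HLC replicate 1 or 2 or LC replicate 1 or 3 (adjusted p between 0.0556 and 0.0816).

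Of 25 tested genes of interferon, cytokine and innate signalling, 1 was higher (4%, beside 1.37% of all genes), 0 were lower and the median was 0.04. RIPK2 (ENSGALG00000015899), the kinase that passes on signals of the NOD receptors for bacterial cell walls, had 24.9, 25.3 and 26.99 FPKM in HLC libraries, against 14.7, 20.2 and 19.5 FPKM in LC libraries (log2 fold change 0.49 with a standard error of 0.12, adjusted p = 0.0482 from limma). Of the genes with a symbol it was the called one nearest to the threshold, and the call was lost without HLC replicate 1, 2 or 3 or LC replicate 1 or 3 (adjusted p between 0.0844 and 0.132). HHLA2, a ligand of the B7 family that regulates T cells, missed the threshold with 17.6, 20.7 and 13.3 FPKM in HLC libraries, against 6.46, 10.7 and 7.52 FPKM in LC libraries (0.99, adjusted p = 0.0505). The chemokine CCL20 (0.62, adjusted p = 0.394), the interferon receptor IFNAR1 (-0.34, adjusted p = 0.299), the death receptor FAS (0.20, adjusted p = 0.522) and the tumour necrosis factor receptor TNFRSF1A (0.06, adjusted p = 0.793) were further from it.

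Transcription factors of the immediate early and stress response were higher at 3300 m, namely EGR1 and ATF3. They were 2 of 14 tested genes of that list, with 0 lower, beside 1.37% of all genes that were higher. The median of the list was 0.21 and 10 of 14 fold changes were positive. EGR1 (ENSGALG00000007669), a zinc finger factor induced within minutes by growth factors and stretch, had 71.4, 55.1 and 75.1 FPKM in HLC libraries, against 14.5, 29.4 and 22.9 FPKM in LC libraries. Every HLC library was above every LC library, with means of 67.2 ± 10.7 FPKM in HLC lung and 22.3 ± 7.44 FPKM in LC lung (SD, n = 3 each), and EGR1 was the largest difference among the higher genes with a symbol (log2 fold change 1.59 with a standard error of 0.27, adjusted p = 0.0103 from limma). It stayed past the threshold whichever single library was left out (adjusted p up to 0.0388). ATF3 (ENSGALG00000025887), a leucine zipper factor induced by many kinds of cellular stress, had 11.9, 13.2 and 10.4 FPKM in HLC libraries, against 5.02, 6.35 and 4.21 FPKM in LC libraries. The groups did not overlap (log2 fold change 1.06 with a standard error of 0.19, adjusted p = 0.0132 from limma), but the call was lost without HLC replicate 2 or LC replicate 1 or 3 (adjusted p between 0.0526 and 0.0549). In the fit of all 48 libraries neither EGR1 (adjusted p = 0.223 from limma) nor ATF3 (adjusted p = 0.509) was past the threshold, which left 0 of the 14.

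Chaperones were not past the threshold. HSP90AA1, the inducible form of the chaperone HSP90, had 1137, 976 and 618 FPKM in HLC libraries, against 373, 466 and 576 FPKM in LC libraries. HLC replicate 3 was close to LC replicate 3, and the difference missed the threshold (log2 fold change 0.92 with a standard error of 0.26, adjusted p = 0.0786 from limma). Without HLC replicate 3 it was past it (1.18, adjusted p = 0.0361 from limma). The co-chaperone DNAJB4 differed by 0.34 (adjusted p = 0.203), the chaperonin subunit CCT5 by 0.25 (adjusted p = 0.255) and the heat shock factor HSF2 by 0.08 (adjusted p = 0.645). OSGIN1, a gene induced by oxidative stress, had 46.4, 55.8 and 37.3 FPKM in HLC libraries, against 17.1, 29.7 and 42.5 FPKM in LC libraries, with LC replicate 3 above 1 of the HLC libraries (0.70, adjusted p = 0.235). The kinase PIM3 (0.27, adjusted p = 0.555), the feedback inhibitor ERRFI1 (0.18, adjusted p = 0.552) and the factor MYC (-0.06, adjusted p = 0.898) were not past the threshold.

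The other 3 higher genes with a symbol were in no list. CYB5A (ENSGALG00000013708), cytochrome b5, an electron carrier of the endoplasmic reticulum used in lipid synthesis, was the most abundant of them. It had 157, 207 and 132 FPKM in HLC libraries, against 81.2, 106 and 85.7 FPKM in LC libraries (log2 fold change 0.84 with a standard error of 0.18, adjusted p = 0.0288 from limma), a call lost without HLC replicate 1 or 2 or LC replicate 1 or 3 (adjusted p between 0.0648 and 0.107). CUL3 (ENSGALG00000005108), the scaffold of ubiquitin ligases that among other substrates degrade the antioxidant factor NRF2, had 30.1, 35.6 and 33.1 FPKM in HLC libraries, against 22.8, 24.95 and 24.5 FPKM in LC libraries (log2 fold change 0.43 with a standard error of 0.10, adjusted p = 0.0336 from limma). AGFG1 (ENSGALG00000003052), a protein with an Arf GTPase-activating domain, had 27.6, 29.5 and 29.03 FPKM in HLC libraries, against 22.4, 22.7 and 21.7 FPKM in LC libraries (log2 fold change 0.35 with a standard error of 0.08, adjusted p = 0.0303 from limma). Both differences were small, with the 3 libraries of each group close together, and both calls were lost in fits with 1 library left out. That of CUL3 was lost without HLC replicate 2 or 3 or LC replicate 1, 2 or 3 (adjusted p between 0.0524 and 0.116), and that of AGFG1 was lost whichever single library was left out (adjusted p between 0.0539 and 0.117).

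Genes of the extracellular matrix had the most negative median of all lists, -0.62 over 14 tested genes, but 0 of the 14 were past the threshold in either direction. In 8 of 14 the HLC libraries lay wholly below the LC libraries, beside 13.6% of all genes. SPARC, a matrix glycoprotein that binds collagen, had 408, 315 and 249 FPKM in HLC libraries, against 870.3, 527 and 1040.3 FPKM in LC libraries. The groups did not overlap, LC libraries spread widely, and the difference just missed the threshold (log2 fold change -1.30 with a standard error of 0.32, adjusted p = 0.0505 from limma). The laminin chain LAMC1 (-0.75, adjusted p = 0.0723), the collagen chain COL5A1 (-0.77, adjusted p = 0.076) and the heparan sulfate carrier GPC1 (-0.55, adjusted p = 0.0853) missed it by more. Without LC replicate 2, SPARC (adjusted p = 0.0301 from limma) and COL5A1 (adjusted p = 0.0495) were past the threshold, and SPARC was also past it with quantile or upper quartile scaling and in the fit of all 48 libraries. COL6A2 had 72.4, 56.3 and 69.00 FPKM in HLC libraries, against 176, 73.5 and 123 FPKM in LC libraries (-0.82, adjusted p = 0.206), so that LC replicate 2 lay near the HLC libraries. The lysyl hydroxylase PLOD2 and the laminin chain LAMA2 had positive values (0.37, adjusted p = 0.221, and 0.67, adjusted p = 0.202). Of 9 marker genes of fibroblasts and mesenchyme, 6 had an ID and 6 of 6 were above 0 in every library. They summed to 375.6 to 555.6 FPKM in HLC libraries and 670.5 to 1297 FPKM in LC libraries, mostly from SPARC.

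Of 9 tested matrix proteases 1 was lower (11.1%, beside 2.52% of all genes), 0 were higher, and the median was -0.42. The count was 3 without LC replicate 2, among them MMP11 (adjusted p = 0.034 from limma), and 0 without any other of the 6 libraries. ADAMTS7 (ENSGALG00000008164), a secreted protease that cuts cartilage oligomeric matrix protein, had 0.928, 0.717 and 1.01 FPKM in HLC libraries, against 6.36, 1.73 and 5.83 FPKM in LC libraries. LC replicate 2 was far below the other LC libraries (log2 fold change -1.46 with a standard error of 0.35, adjusted p = 0.0438 from limma), and the call was lost without HLC replicate 1, 2 or 3 or LC replicate 1 or 3 (adjusted p between 0.0865 and 0.156). MMP11 had 10.5, 12.7 and 4.98 FPKM in HLC libraries, against 78.1, 14.9 and 48.3 FPKM in LC libraries, and missed the threshold with all libraries, among which the LC libraries spread widely (-2.01, adjusted p = 0.1). MMP2, the gelatinase of fibroblasts, behaved likewise (-0.92, adjusted p = 0.256), as did SNAI2, a transcription factor of mesenchymal cells (-1.04, adjusted p = 0.178). In ADAMTS7, MMP11, MMP2 and SNAI2 alike, LC replicate 2 was the lowest of the LC libraries, as it was in the summed mesenchymal markers.

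STMN2 (ENSGALG00000015736), a stathmin that regulates microtubules in growing axons, was the largest difference among the lower genes with a symbol. It had 7.61, 6.14 and 7.86 FPKM in HLC libraries, against 30.3, 14.3 and 47.5 FPKM in LC libraries. The 3 HLC libraries lay close together while the LC libraries spread widely (log2 fold change -1.81 with a standard error of 0.42, adjusted p = 0.0365 from limma). The call was lost without HLC replicate 1, 2 or 3 or LC replicate 1 or 3 (adjusted p between 0.076 and 0.131). STMN2 was the only 1 of 12 tested neuronal and synaptic genes past the threshold (8.33%, beside 2.52% of all genes that were lower). The median of the list was 0.07. The neuronal tubulin TUBB3 was not past it (-0.27, adjusted p = 0.733). Of the 6 neuronal markers, GPM6A, SYT13 and SLC17A6 were at most 0.114 FPKM in each of the 6 libraries, against medians of 265.7, 9.60 and 130.2 FPKM in brain libraries. Neuronal markers as a whole summed to 10.9 to 14.3 FPKM in HLC libraries and 24.2 to 57.2 FPKM in LC libraries, mostly from STMN2.

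Among genes tied to oxygen and to vessels, NOX4 was lower. NOX4 (ENSGALG00000017235) encodes an NADPH oxidase that makes hydrogen peroxide and is found in fibroblasts and in vascular cells. It had 2.11, 1.85 and 2.79 FPKM in HLC libraries, against 5.70, 4.20 and 5.35 FPKM in LC libraries. All HLC libraries lay below all LC libraries (log2 fold change -0.91 with a standard error of 0.14, adjusted p = 0.0069 from limma), and NOX4 stayed past the threshold whichever single library was left out (adjusted p up to 0.0329). It was the 1 of 13 tested members of the list of hypoxia targets past the threshold (7.69%, beside 2.52% of all genes that were lower). In that list 0 were higher and the median was -0.05. Of the 13 fold changes 9 were negative. PDK1, which diverts pyruvate from mitochondria, had 16.02, 20.1 and 17.9 FPKM in HLC libraries, against 18.7, 18.7 and 19.9 FPKM in LC libraries (-0.08, adjusted p = 0.722). The glucose transporter SLC2A3 had 30.7, 32.6 and 30.6 FPKM in HLC libraries, against 35.02, 31.2 and 29.6 FPKM in LC libraries (-0.02, adjusted p = 0.933), and the groups overlapped in both. The hormone STC2 (0.06, adjusted p = 0.891) and the histone demethylase KDM4B (-0.05, adjusted p = 0.819) were not past the threshold either.

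Of 17 tested genes of vascular tone and vessels, 1 was lower (5.88%, beside 2.52% of all genes), 0 were higher and the median was -0.20. KCNMA1 (ENSGALG00000004980), the pore of the calcium-activated potassium channel that relaxes smooth muscle, had 1.70, 1.75 and 2.50 FPKM in HLC libraries, against 6.83, 3.99 and 3.76 FPKM in LC libraries (log2 fold change -0.95 with a standard error of 0.23, adjusted p = 0.0432 from limma). The call was lost without HLC replicate 1, 2 or 3 or LC replicate 1 or 3 (adjusted p between 0.0534 and 0.138). Other smooth muscle markers were not past the threshold, as ACTG2 differed by -0.26 (adjusted p = 0.422), CALD1 by -0.24 (adjusted p = 0.334) and CSRP1 by 0.01 (adjusted p = 0.985). Endothelial genes were not past the threshold, with RAMP2, part of the adrenomedullin receptor, at 297, 377 and 208 FPKM in HLC libraries, against 302, 351 and 413 FPKM in LC libraries (-0.30, adjusted p = 0.442), FLT1 at -0.49 (adjusted p = 0.342) and FLT4 at -0.14 (adjusted p = 0.75). ADK (ENSGALG00000005057), the kinase that clears adenosine, had 6.52, 7.95 and 6.74 FPKM in HLC libraries, against 12.4, 12.4 and 12.9 FPKM in LC libraries (log2 fold change -0.75 with a standard error of 0.17, adjusted p = 0.0367 from limma). The call was lost whichever single library was left out (adjusted p between 0.0635 and 0.12). The adenosine receptor ADORA2B missed the threshold with 1.90, 2.14 and 2.58 FPKM in HLC libraries, against 3.83, 4.19 and 4.13 FPKM in LC libraries (-0.66, adjusted p = 0.0575), although its groups did not overlap.

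Genes of DNA replication and cell division mostly had small negative fold changes. Of 24 tested genes 1 was lower (4.17%, beside 2.52% of all genes), 21 fold changes were negative and the median was -0.19. In 10 of the 24 the HLC libraries lay wholly below the LC libraries, beside 13.6% of all genes. ORC1 (ENSGALG00000010623), a subunit of the complex that marks replication origins, had 0.769, 0.770 and 0.957 FPKM in HLC libraries, against 1.76, 2.73 and 2.27 FPKM in LC libraries (log2 fold change -0.82 with a standard error of 0.20, adjusted p = 0.0425 from limma). Its call was lost whichever single library was left out (adjusted p between 0.0665 and 0.127). ORC1 was under 1 FPKM in every HLC library and passed the filter only through other libraries. Cyclin CCNB2 had 4.49, 6.43 and 4.59 FPKM in HLC libraries, against 13.4, 7.96 and 7.30 FPKM in LC libraries (-0.74, adjusted p = 0.197), UHRF1, which keeps DNA methylation through replication, differed by -0.43 (adjusted p = 0.112), and the mitotic kinesin KIF18A by -0.52 (adjusted p = 0.171). The 5 markers of dividing cells, 5 of 5 above 0 in every library, summed to 12.6 to 14.4 FPKM in HLC libraries and 18.7 to 26.9 FPKM in LC libraries.

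Further lower genes were IGF2BP3 and KIF21B, which held under every alternative in which they were tested. IGF2BP3 (ENSGALG00000010961) binds mRNAs, among them that of insulin-like growth factor 2, and is mostly a gene of embryonic tissue. It had 0.852, 1.24 and 1.21 FPKM in HLC libraries, against 2.80, 2.80 and 2.36 FPKM in LC libraries (log2 fold change -0.80 with a standard error of 0.13, adjusted p = 0.00772 from limma) and stayed past the threshold whichever single library was left out (adjusted p up to 0.0377). It was the 1 of 22 tested genes of growth factors and their receptors past the threshold (4.55%, beside 2.52% of all genes that were lower), and is itself neither. MDK, the heparin-binding growth factor midkine, missed the threshold with 1.68, 1.64 and 0.948 FPKM in HLC libraries, against 7.43, 4.02 and 2.63 FPKM in LC libraries (-1.16, adjusted p = 0.0789). KIF21B (ENSGALG00000000628), a kinesin motor of microtubules, had 1.08, 1.20 and 1.41 FPKM in HLC libraries, against 3.02, 3.40 and 2.59 FPKM in LC libraries (log2 fold change -0.84 with a standard error of 0.14, adjusted p = 0.00759 from limma) and stayed past the threshold whichever single library was left out (adjusted p up to 0.033). PRF1 and NOX4 were the other 2 of the 33 genes with a symbol that were past the threshold in every alternative in which they were tested.

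Of the remaining lower genes, several act in ubiquitin, autophagy and membrane traffic. RNF130 (ENSGALG00000005820), a ubiquitin ligase of endosomal membranes, had 35.3, 40.96 and 37.3 FPKM in HLC libraries, against 58.1, 64.4 and 60.9 FPKM in LC libraries (log2 fold change -0.68 with a standard error of 0.10, adjusted p = 0.00522 from limma) and stayed past the threshold whichever single library was left out (adjusted p up to 0.0226). MAP1LC3C (ENSGALG00000010741), a member of the LC3 family of autophagosome proteins, had 0.263, 0.414 and 0.390 FPKM in HLC libraries, against 1.54, 2.47 and 1.84 FPKM in LC libraries. It was under 1 FPKM in every HLC library, so it passed the filter only through other libraries (log2 fold change -1.11 with a standard error of 0.17, adjusted p = 0.00696 from limma). It stayed past the threshold whichever single library was left out (adjusted p up to 0.0282). RAB40B, a small GTPase that joins a ubiquitin ligase, had 5.26, 3.58 and 3.26 FPKM in HLC libraries, against 8.47, 10.05 and 6.07 FPKM in LC libraries (log2 fold change -0.87 with a standard error of 0.21, adjusted p = 0.0455 from limma). This call was lost without HLC replicate 2 or 3 or LC replicate 1 or 2 (adjusted p between 0.0974 and 0.138). MAN1A1, a mannosidase that trims sugars in the Golgi, had 8.52, 8.24 and 10.1 FPKM in HLC libraries, against 17.1, 12.7 and 13.4 FPKM in LC libraries (log2 fold change -0.62 with a standard error of 0.14, adjusted p = 0.0306 from limma), a call lost without HLC replicate 1 or 2 or LC replicate 1 or 3 (adjusted p between 0.0682 and 0.109).

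Others act in signalling and lipid metabolism. RASSF2 (ENSGALG00000000206), a Ras-binding protein of many blood cells, had 13.6, 6.72 and 10.8 FPKM in HLC libraries, against 28.1, 20.3 and 19.5 FPKM in LC libraries (log2 fold change -1.08 with a standard error of 0.22, adjusted p = 0.0217 from limma). Its call was lost without HLC replicate 2 or LC replicate 1 (adjusted p between 0.0528 and 0.0872). SGPL1, the lyase that breaks down sphingosine 1-phosphate, had 16.5, 13.7 and 15.3 FPKM in HLC libraries, against 21.8, 27.98 and 27.00 FPKM in LC libraries (log2 fold change -0.71 with a standard error of 0.13, adjusted p = 0.0132 from limma). It was the 1 of 25 tested genes of sterol and lipid handling past the threshold (4%, beside 2.52% of all genes that were lower). The SGPL1 call was lost without HLC replicate 2 or LC replicate 3 (adjusted p between 0.0526 and 0.0528). ST8SIA1, the sialyltransferase that makes ganglioside GD3, had 0.967, 1.16 and 0.627 FPKM in HLC libraries, against 2.43, 2.32 and 2.13 FPKM in LC libraries (log2 fold change -0.79 with a standard error of 0.18, adjusted p = 0.0334 from limma), a call lost whichever single library was left out (adjusted p between 0.0574 and 0.11). ABI2, a subunit of the WAVE complex that starts actin branching, had 5.67, 4.97 and 5.29 FPKM in HLC libraries, against 7.78, 7.75 and 8.26 FPKM in LC libraries (log2 fold change -0.50 with a standard error of 0.10, adjusted p = 0.0177 from limma). That call was lost without HLC replicate 2 or LC replicate 1 or 3 (adjusted p between 0.0558 and 0.0682). The gene listed as TCF1 (ENSGALG00000006480), a symbol that more than 1 gene has carried, had 3.75, 3.20 and 3.44 FPKM in HLC libraries, against 5.66, 6.99 and 6.48 FPKM in LC libraries (log2 fold change -0.72 with a standard error of 0.11, adjusted p = 0.00696 from limma) and stayed past the threshold whichever single library was left out (adjusted p up to 0.031).

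Of 34 tested mitochondrial genes 1 was lower (2.94%, beside 2.52% of all genes), 0 were higher and the median was 0.04. It was CMC1, an assembly factor of cytochrome c oxidase, with 9.73, 9.18 and 8.94 FPKM in HLC libraries, against 14.99, 12.3 and 14.04 FPKM in LC libraries (log2 fold change -0.52 with a standard error of 0.11, adjusted p = 0.0313 from limma), a call lost without HLC replicate 1, 2 or 3 or LC replicate 1 or 3 (adjusted p between 0.0645 and 0.114). SLC25A37, mitoferrin, which brings iron into mitochondria and is most active in erythroid cells, had 38.9, 74.4 and 37.02 FPKM in HLC libraries, against 10.02, 25.4 and 16.7 FPKM in LC libraries. The groups did not overlap and the spread within them was wide (log2 fold change 1.49 with a standard error of 0.43, adjusted p = 0.079 from limma). Of 25 tested genes of glycogen, amino acid and cofactor metabolism 2 were lower (8%, beside 2.52% of all genes), 0 were higher and the median was 0.00. They were ADK and MCEE (ENSGALG00000003913), an epimerase of propionate breakdown, which had 2.33, 3.29 and 1.998 FPKM in HLC libraries, against 6.39, 5.03 and 4.65 FPKM in LC libraries (log2 fold change -0.85 with a standard error of 0.18, adjusted p = 0.027 from limma). Its call was lost without HLC replicate 1 or 3 or LC replicate 1 or 3 (adjusted p between 0.0526 and 0.104).

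Beside extracellular matrix, 10 lists had 0 of their tested genes past the threshold in limma. These were genes of endoplasmic reticulum folding and export (20 tested, median -0.01), actin and contractile proteins (16, -0.13), epithelial genes (16, 0.26), cilium and axoneme (19, 0.14), iron and erythroid genes (2, 0.46), solute carriers and ABC transporters (20, -0.10), calcium and cyclic nucleotide signalling (20, -0.07), transcription factors of the mesenchyme and Notch targets (15, -0.06), ribosome biogenesis and translation (28, 0.04) and splicing and RNA processing (26, 0.02). Among epithelial genes, the keratin KRT14 had 5.82, 6.71 and 5.03 FPKM in HLC libraries, against 0.590, 3.88 and 0.985 FPKM in LC libraries (1.45, adjusted p = 0.0908), the factor ELF3 differed by 1.02 (adjusted p = 0.195) and the keratin KRT19 by 0.73 (adjusted p = 0.297). MFSD2A, the carrier that brings lysophosphatidylcholine into cells and is active in alveolar cells of mammals, had 4.64, 7.54 and 5.59 FPKM in HLC libraries, against 3.25, 3.43 and 3.13 FPKM in LC libraries (0.68, adjusted p = 0.0606), with the groups apart.

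**Figure D3:**
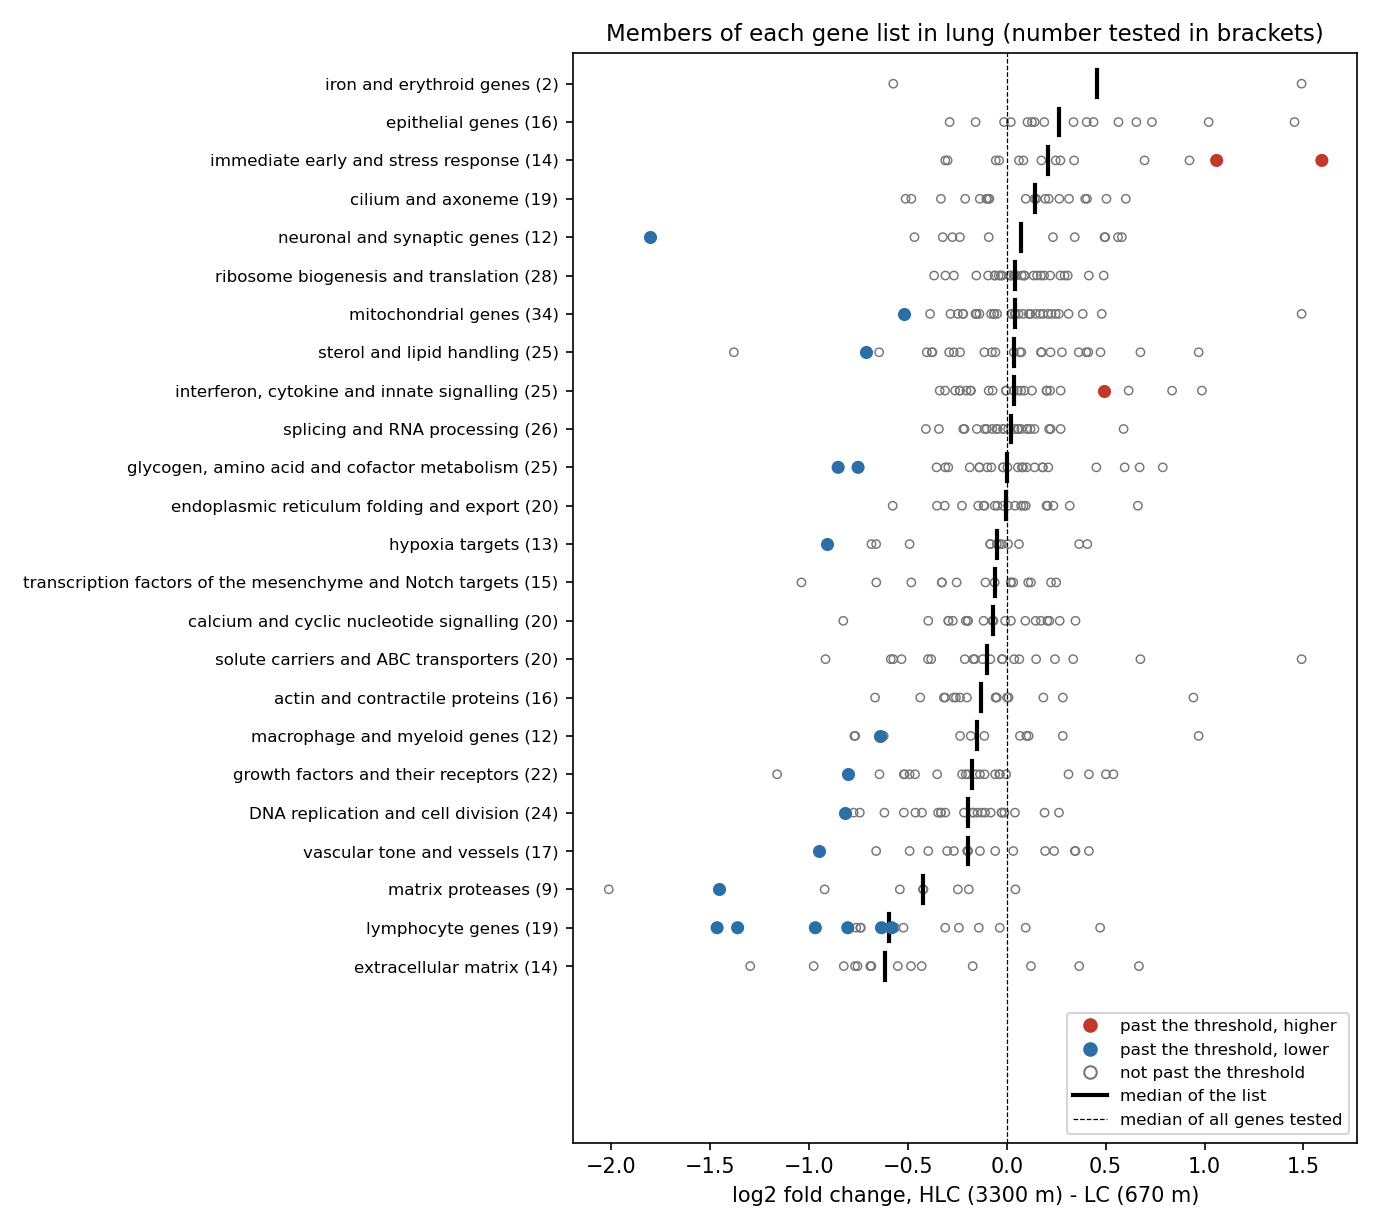
Log2 fold change between HLC and LC lung (horizontal axis) of each tested member of the 24 gene lists (rows, with the number tested), where filled points are past the threshold and black bars are list medians. The lists of lymphocyte genes (median -0.60) and of extracellular matrix (-0.62) lie furthest below the median of all genes, and 6 filled points belong to lymphocyte genes.

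Most genes past the threshold have only an ID. The ID most raised, ENSGALG00000027959, had 31.4, 81.99 and 31.6 FPKM in HLC libraries, against 0, 0 and 0 FPKM in LC libraries. It is listed at 0 in the 3 LC libraries, so no fold can be given and it passed the filter only through other libraries. Its call (adjusted p = 0.0294 from limma) was lost whichever single library was left out (adjusted p between 0.054 and 0.107). ENSGALG00000026823 had 79.1, 86.4 and 22.4 FPKM in HLC libraries, against 1.51, 10.8 and 4.76 FPKM in LC libraries (log2 fold change 3.30 with a standard error of 0.58, adjusted p = 0.0117 from limma). That call was lost without HLC replicate 2 (adjusted p = 0.0528). On the lower side, ENSGALG00000026514 had 14.99, 0 and 0 FPKM in HLC libraries, against 32.4, 42.1 and 56.8 FPKM in LC libraries, and 2 of its HLC libraries are listed at 0 (adjusted p = 0.026 from limma). Its call was lost without HLC replicate 2 or 3 or LC replicate 1 or 3 (adjusted p between 0.0717 and 0.0984). ENSGALG00000022939 had 0.673, 0.333 and 0.583 FPKM in HLC libraries, against 17.5, 4.40 and 4.47 FPKM in LC libraries (log2 fold change -2.43 with a standard error of 0.47, adjusted p = 0.0183 from limma), a call lost without HLC replicate 2 (adjusted p = 0.0716). This ID was under the filter level of 1 FPKM in every HLC library, so it passed the filter only through other libraries. Of the 921 tested genes with a symbol, 6 were higher and 27 lower, which is 3.58% past the threshold, beside 3.89% of all genes.

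Marker genes of other cell types give the setting for these results. Lung epithelium markers (6 of 9 with an ID) summed to 103.9 to 184.8 FPKM in HLC libraries and 53.4 to 135.9 FPKM in LC libraries, and ciliated cell markers (5 of 6) to 2.95 to 5.89 FPKM in HLC and 1.41 to 7.87 FPKM in LC libraries. Both overlapped, and LC replicate 1 was lowest in both. Endothelium (4 of 7; 316.1 to 464.8 FPKM in HLC and 399.0 to 543.3 FPKM in LC), smooth muscle (4 of 7; 386.1 to 447.7 and 421.0 to 479.4 FPKM) and macrophages (4 of 6; 28.4 to 44.1 and 39.9 to 60.3 FPKM) overlapped as well. CD36 weighed heavily in the macrophage sum, with 18.7 to 30.5 FPKM in HLC and 12.3 to 40.9 FPKM in LC libraries. Its median in heart libraries was 339.4 FPKM. Of the other macrophage markers, C3AR1 was lower in each HLC library than in any LC library, while IGSF6 and GPNMB overlapped. Summed markers of lymphocytes, mesenchyme, neurons and dividing cells were lower in each HLC library than in any LC library, and the 1 erythroid marker with an ID, SLC25A37, was higher. Among all genes tested, HLC libraries lay wholly below LC libraries in 13.6% and wholly above in 12.5%. The neuronal sum was mostly STMN2, a gene past the threshold itself. The mesenchymal sum was mostly SPARC. Of the other mesenchymal markers, MMP2 and COL12A1 overlapped, while COL5A1, COL6A2 and SNAI2 did not. Hepatocyte markers (3 of 5) were at 8.03 to 28.4 FPKM in HLC and 10.4 to 25.4 FPKM in LC libraries, against a median of 4455 FPKM in liver, while OTC was listed at 0 in each of the 6 lung libraries and had a median of 0 in liver as well. As for the tissue label, epithelial and endothelial markers had medians of 125.9 and 402.9 FPKM over the lung libraries, against 2.08 and 111.7 FPKM over heart libraries and 86.6 and 49.2 FPKM over liver libraries, and the surfactant genes were not matched to an ID here. What part such shifts have in the results above was not tested.

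**Figure D4:**
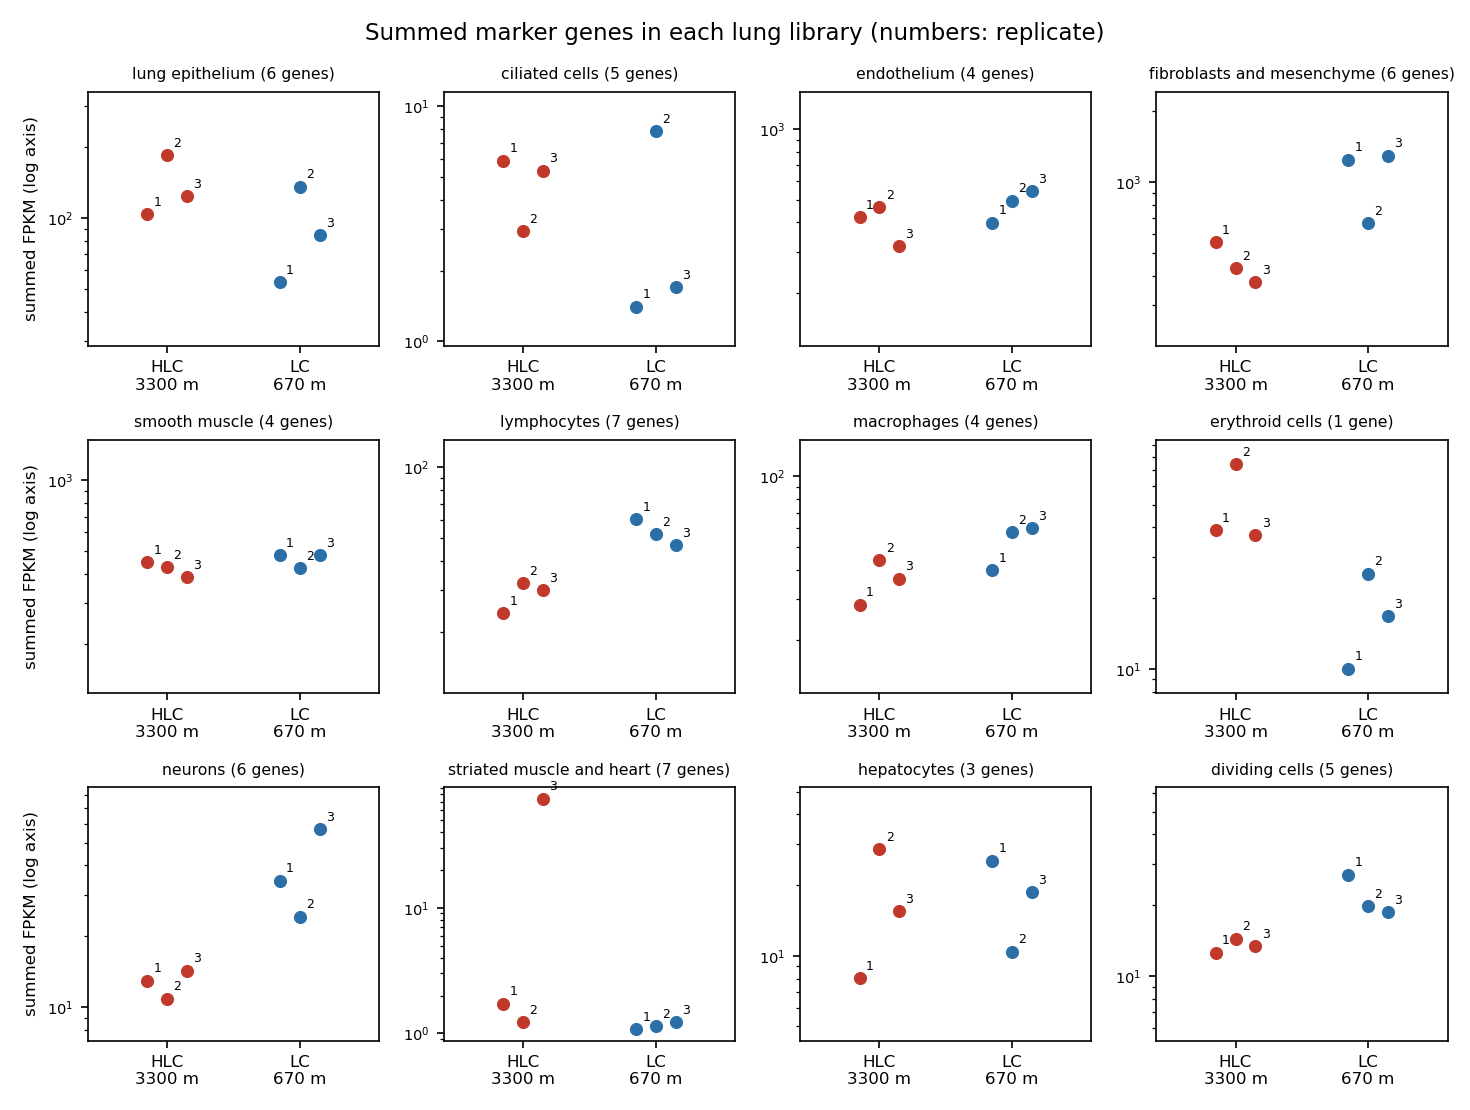
Summed FPKM (vertical axes, log scale) of the marker genes of 12 cell types in the 3 HLC libraries (red, left) and the 3 LC libraries (blue, right), with the replicate number beside each point. Lymphocyte markers lie at 24.0 to 32.2 FPKM in HLC and 46.8 to 60.1 FPKM in LC libraries, and striated muscle and heart markers reach 73.97 FPKM in HLC replicate 3 only.

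Calls were also checked with each HLC or LC library left out. That leaves a smaller group and fewer residual degrees of freedom, so a call can be lost with little change in its fold change. For AGFG1, whose call was lost each time, the fold change stayed between 0.33 and 0.38. For CD44 it lay between -0.45 and -0.75. Of the 33 genes with a symbol past the threshold, 9 remained so without any single HLC or LC library, namely EGR1, PRF1, NOX4, MAP1LC3C, SASH3, TCF1, KIF21B, IGF2BP3 and RNF130. The other 24 lost their calls without 2 to 6 of the 6 libraries, with an adjusted p of up to 0.156 (ADAMTS7 without LC replicate 3). None changed sign. Most were lost without HLC replicate 2 or LC replicate 1 (22 each), and fewest without LC replicate 2 (8). Without HLC replicate 3, 19 of the 33 were past the threshold, 3 higher and 16 lower. Of the 9 that remained, EGR1 (adjusted p = 0.223 from limma), SASH3 (0.158), TCF1 (0.124), RNF130 (0.121) and MAP1LC3C (0.0686) were not past it in the fit of all 48 libraries.

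Tibetan chickens in the same design allow the difference between 3300 m and 670 m to be set beside that of lowland chickens, with no library in common, although 1 fit gave the spread for both. In TC lung, against LTC lung, 1406 genes (12.1%) differed past the threshold, with 401 of them higher (3.46%) and 1005 lower (8.66%). Of the 451 genes of lowland chickens, 395 (87.6%) had the same sign in Tibetan chickens, beside 64.1% of all genes tested, and 171 were past the threshold with the same sign. These 171 are 37.9% of the lowland genes and 12.2% of the Tibetan ones. Another 8 were past it with the opposite sign. Of the 159 higher genes 41 were also higher in Tibetan chickens (median fold change there 0.28), and of the 292 lower genes 130 were also lower (median -0.50). With a symbol, 30 of 33 had the same sign.

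Single genes differed in this respect. SASH3 was lower by nearly the same amount in Tibetan chickens (-0.97 in lowland and -0.96 in Tibetan chickens, adjusted p = 0.00424 from limma in Tibetan chickens), and so were ADAMTS7 (-1.46 and -1.54, adjusted p = 0.0203), MCEE (-0.85 and -0.79, adjusted p = 0.0213) and IGF2BP3 (-0.80 and -0.71, adjusted p = 0.00924). ATF3 was higher in both (1.06 and 1.47, adjusted p = 0.00263). PRF1 was past the threshold in lowland chickens and not in Tibetan chickens (-0.46, adjusted p = 0.11), with 2.48, 3.46 and 3.14 FPKM in TC libraries, against 5.63, 4.80 and 3.38 FPKM in LTC libraries. EGR1 had 22.4, 31.7 and 18.2 FPKM in TC libraries, against 25.5, 22.6 and 15.3 FPKM in LTC libraries (0.17, adjusted p = 0.727), and CD28 3.34, 6.29 and 5.84 FPKM in TC libraries, against 4.93, 6.05 and 9.04 FPKM in LTC libraries (-0.32, adjusted p = 0.497). The difference between the 2 altitude differences was not past the threshold for PRF1 (adjusted p = 0.101 from limma), EGR1 (0.124) or CD28 (0.261), so none of them is shown to be particular to lowland chickens. Of 19 lymphocyte genes, 5 were lower and 0 higher in Tibetan chickens, beside 8.66% of all genes that were lower there. The median of the list was -0.397 in Tibetan and -0.596 in lowland chickens, beside -0.085 and 0.001 over all genes. Other lists had more negative medians in Tibetan chickens. These were extracellular matrix (6 of 14 lower, median -0.754), matrix proteases (4 of 9, -0.975) and growth factors and their receptors (7 of 22, -0.532), each with 0 higher.

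The test of that difference itself called 59 genes (0.509%), 30 with a higher and 29 with a lower altitude difference in lowland chickens, and 12 of them were among the 451. The count moved with the libraries. It was 10 without HLC replicate 3 or LC replicate 2, 11 without LTC replicate 2, 12 without TC replicate 2 or 3, 14 without LC replicate 3, 17 without LTC replicate 1 or 3, 34 without TC replicate 1 and 37 without HLC replicate 2, and at most 84 (without LC replicate 1). Among the 33 genes with a symbol past the threshold in lowland lung, 1 was called. RAB40B was lower at 3300 m in lowland chickens and higher in Tibetan chickens, with 9.82, 12.8 and 15.5 FPKM in TC libraries, against 3.49, 2.56 and 2.98 FPKM in LTC libraries (1.76, adjusted p = 0.00149 from limma). The difference between them was -2.62 on the log2 scale (adjusted p = 0.00421 from limma), with all HLC libraries below all LC libraries and all TC libraries above all LTC libraries.

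**Figure D5:**
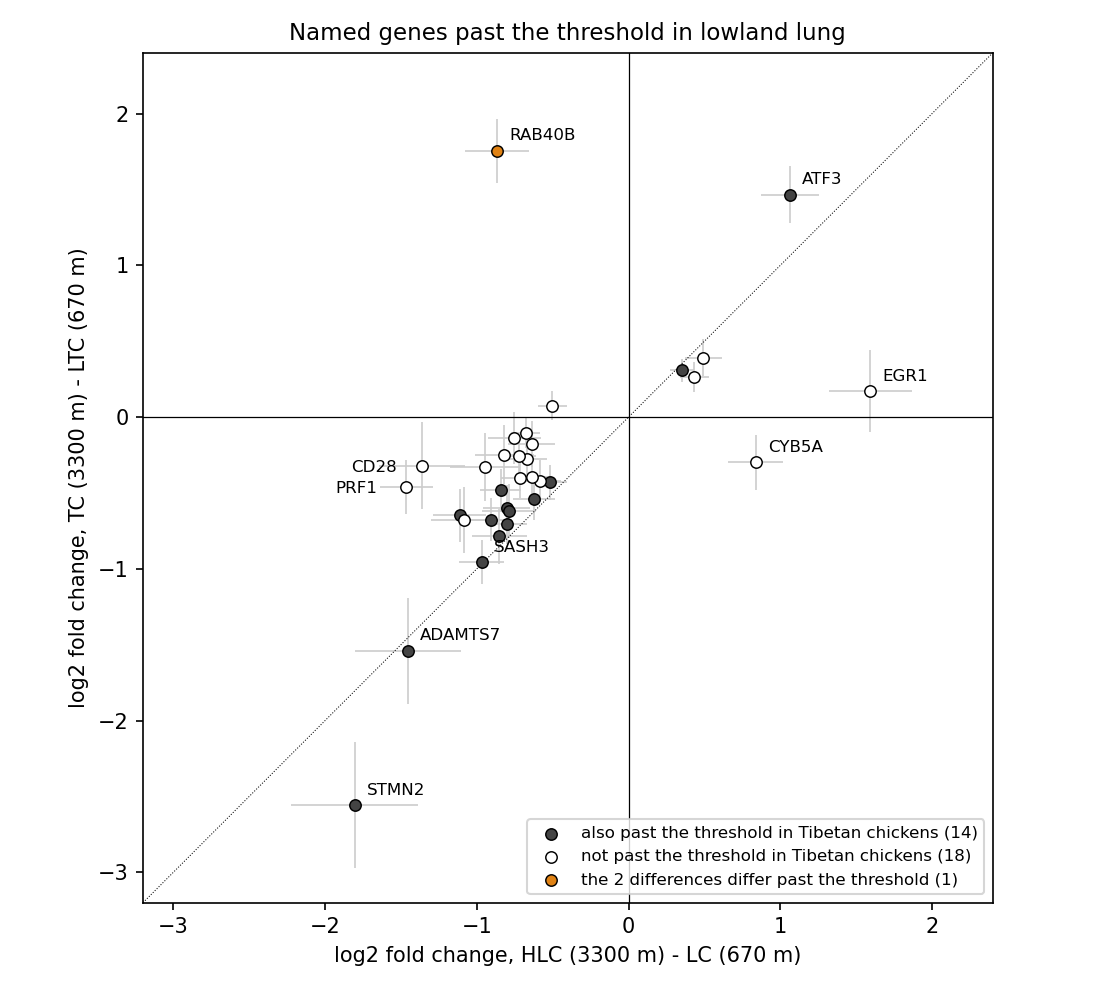
Log2 fold change between TC and LTC lung (vertical axis) against that between HLC and LC lung (horizontal axis) for the 33 genes with a symbol past the threshold in lowland lung, with 1 standard error as bars and equality as a dotted line. Of the 33 points 30 lie in the quadrants where both have the same sign, 14 (filled dark) are also past the threshold in Tibetan chickens with the same sign, and RAB40B (orange) is the 1 whose altitude differences differ past the threshold.

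In other tissues of lowland chickens, the difference between 3300 m and 670 m was past the threshold for 1649 of 9944 genes in liver (16.6%), 17 of 11614 in brain (0.146%) and 4 of 10376 in heart (0.0386%). In brain 16 genes were higher (0.138%) and 1 lower (0.00861%), and in heart 1 was higher (0.00964%) and 3 lower (0.0289%). Liver had the most overlap with lung. Of the 451 lung genes 374 were tested in liver, 306 of these (81.8%) had the same sign, beside 59.2% of all genes tested in both, and 144 were past the threshold with the same sign (38.5% of the lung genes tested in liver and 8.73% of the liver genes) and 9 with the opposite sign. Of the 292 lower genes 119 were also lower in liver, beside 11.9% of all liver genes, and of the 159 higher genes 25 were also higher, beside 4.70%. The median fold change of the lung genes tested there was -0.46 in liver, 0.25 in heart and 0.01 in brain, beside -0.15, 0.22 and 0.05 over all genes tested in both tissues. In heart 213 of 368 (57.9%) had the same sign, beside 56.7% of all genes, and in brain 238 of 335 (71.0%), beside 59.7%. Among named genes, PRF1 (-0.81, adjusted p = 0.0224 from limma), SASH3 (-0.80, adjusted p = 0.0251), TNFRSF9 (-0.50, adjusted p = 0.0274), RASSF2 (-1.42, adjusted p = 0.0111), KCNMA1 (-1.69, adjusted p = 0.00399), MCEE (-0.80, adjusted p = 0.00656) and C17orf62 (-0.61, adjusted p = 0.0412) were also lower in liver of HLC. CD28 had a negative value there that missed the threshold (-0.95, adjusted p = 0.0661 from limma). RAB40B (-0.27), SGPL1 (-0.32), RNF130 (-0.10), CD44 (-0.48), MAN1A1 (-0.29) and ABI2 (-0.34) were further from it (adjusted p of 0.219 or more), so they are not shown to be lower in liver. Values of TCF1 (0.35), GPR183 (0.33), ADK (0.02) and CMC1 (0.02) were positive and not past it (adjusted p of 0.22 or more). EGR1 was not higher past the threshold either (0.47, adjusted p = 0.812). The other lower genes with a symbol were not tested in liver. Whether the libraries of the 4 tissues come from the same birds is not stated, and differences between tissues were not tested.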

How the data were processed

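Lung RNA was isolated with TRIzol and sequenced from Illumina TruSeq libraries. FPKM values per gene were deposited by the authors for 48 libraries in 1 table, made with TopHat and Cufflinks 2.2.1 on galGal4 according to the submitters' processing notes. Annotation release, options and read filters were not given in the sources used here. Column sums differ, so no scaling to a common sum was applied. FPKM holds no read counts, so depth could only be estimated roughly and relative to other libraries. No counting error can be given and no count model was used.

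Genes reaching 1 FPKM in 3 or more of the 12 lung libraries were kept. Values of log2(FPKM + 1) were modelled in limma 3.58.1 (R 4.3.3), with 1 mean for each of the 4 groups, 8 residual degrees of freedom and moderation with a trend, and p-values (2-sided) were adjusted after Benjamini and Hochberg over all 11601 genes. Contrasts were HLC minus LC, TC minus LTC and the difference between them. Other tissues were fitted likewise on their own 12 libraries. Groups came from the sample labels. The study's paper reports no RNA-seq, so no test was taken from it.

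The genes named were, among those with a symbol, the 20 largest higher and 20 largest lower past the threshold, up to 4 members of each list with the smallest p, up to 5 per direction of the difference between contrasts, genes of the paper's text, marker genes, and 2 IDs without a symbol per direction. C17orf62, ABI2 and further members of lists and marker sets were named after their values were seen. The gene lists and the comparison were chosen with earlier results of these data known, so lists are described by counts and medians with no test.

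No Ensembl ID could be paired with a sequence in the reference used here, so no sequence or position is given. Tested on simulated data, the fit recovered 72.5% of 200 genes changed by a log2 size of 1, with 3.97% of calls false. It recovered 95.0% of those changed by 2, with 3.55% of calls false. For the difference between contrasts it recovered 48.0% and 85.5%, with 5.88% and 4.47% of calls false. These shares describe the simulated data only. The share of false calls among the genes called in the lung libraries was not tested. Alternatives were a pseudocount of 0.1, no filter, a mean of at least 5 FPKM, quantile and upper quartile scaling, no trend, all 48 libraries in 1 fit, only the 6 HLC and LC libraries, leaving out each library, and a replicate block.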

Additional observations from a re-analysis of the deposited data

Results flagged for a closer look

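For 4 genes with a symbol the lung difference between 3300 m and 670 m differed between lowland and Tibetan chickens past the threshold of the test of that difference in limma, out of 921 genes with a symbol tested. In RAB40B the lowland difference minus the Tibetan one was -2.62 on the log2 scale (adjusted p = 0.00421 from limma), with -0.87 in lowland and 1.76 in Tibetan chickens. This call held in every alternative, with an adjusted p of up to 0.0272 with the replicate block and up to 0.0212 with 1 library left out (without HLC replicate 2). PTPRM, a receptor tyrosine phosphatase of cell contacts, had 19.7, 14.99 and 17.1 FPKM in HLC libraries, against 20.8, 21.7 and 27.4 FPKM in LC libraries, and 29.3, 29.5 and 26.1 FPKM in TC libraries, against 16.7, 17.7 and 19.5 FPKM in LTC libraries. Its value was -1.04 (adjusted p = 0.0373 from limma), with -0.41 in lowland and 0.63 in Tibetan chickens. MRPL41, a protein of the mitochondrial ribosome, had 11.7, 19.9 and 14.6 FPKM in HLC libraries, against 12.5, 13.03 and 14.4 FPKM in LC libraries, and 10.6, 12.6 and 11.4 FPKM in TC libraries, against 23.9, 27.7 and 26.3 FPKM in LTC libraries. Its value was 1.27 (adjusted p = 0.0373), with 0.17 in lowland and -1.11 in Tibetan chickens. CNTNAP1, an adhesion protein of myelinated axons, had 3.29, 3.78 and 2.53 FPKM in HLC libraries, against 3.46, 2.19 and 2.45 FPKM in LC libraries, and 1.78, 1.25 and 1.22 FPKM in TC libraries, against 4.25, 5.32 and 3.95 FPKM in LTC libraries. Its value was 1.37 (adjusted p = 0.0418), with 0.19 in lowland and -1.19 in Tibetan chickens. In MRPL41 and CNTNAP1 the lowland groups overlapped. The calls of PTPRM, MRPL41 and CNTNAP1 were each lost without 10, 10 and 11 of the 12 lung libraries, with an adjusted p of up to 0.115, 0.115 and 0.130, in each case without LTC replicate 2.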

How the results depend on the processing

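None of the 33 genes with a symbol past the threshold changed sign in any alternative, and 4 of them (PRF1, NOX4, KIF21B and IGF2BP3) kept their calls in every alternative that tested them. The 451 genes became 249 (80 higher and 169 lower) when only the 6 HLC and LC libraries were fitted, which leaves fewer residual degrees of freedom, and lay between 313 and 597 in the other alternatives that kept all lung libraries. The fit of all 48 libraries gave 286 higher and 311 lower genes (47.9% higher, beside 35.3%), and 273 of the 451 were past the threshold in it. Of the 33 genes with a symbol, 12 were past it with all 48 libraries and 15 with only the 6 libraries. Among those lost with all 48 were CD44 (adjusted p = 0.474 from limma), ABI2 (0.48), MAN1A1 (0.174) and C17orf62 (0.125). A mean of at least 5 FPKM left 8261 genes and gave 178 lower genes. Upper quartile scaling moved the median of all genes to -0.03. Leaving out 1 HLC or LC library gave 155 to 475 genes, 37 to 185 higher and 118 to 290 lower.

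Over all lists, 20 members were past the threshold, against 11 with a mean of at least 5 FPKM, 10 with only the 6 libraries and 7 to 22 with 1 library left out. Lymphocyte genes past the threshold numbered 3 with a mean of at least 5 FPKM and 3 to 5 with 1 library left out, against 6. They numbered 4 with all 48 libraries and 4 with only the 6 libraries. With all 48, only PRF1 and CD28 of the 6 called in the main fit were among them. The 59 genes whose altitude difference differed between lowland and Tibetan chickens became 219 when all 48 libraries were fitted, 34 with no filter and 10 to 84 with 1 library left out.

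HLC and LC libraries share replicate numbers. Deviations of same-number libraries from their group means correlated at -0.03, -0.12 and -0.11 over genes. With 3 libraries a group these deviations constrain each other, so the check cannot decide whether the numbers pair the libraries. With the replicate block the counts were 319 genes (109 higher and 210 lower), 15 list members, 5 lymphocyte genes and 9 genes for the difference between lowland and Tibetan chickens. Causes of these changes were not tested. With unknown depth and 3 libraries a group, a difference that missed the threshold was not shown to be absent.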

Other observations

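Some genes that the study's text names under selection were tested in lung, with CH25H, LIPA, PANK1 and SLC16A12 from its account of domestic chickens and TRIT1, HEYL, EVI5 and ZDHHC9 from that of Tibetan chickens. CH25H, the enzyme that makes 25-hydroxycholesterol, had 17.02, 33.4 and 20.6 FPKM in HLC libraries, against 17.5, 11.9 and 6.48 FPKM in LC libraries, so that HLC replicate 2 was highest and the groups overlapped (log2 fold change 0.97, adjusted p = 0.145 from limma). LIPA, the acid lipase of lysosomes, had 29.9, 56.6 and 43.3 FPKM in HLC libraries, against 48.1, 43.8 and 44.5 FPKM in LC libraries (-0.11, adjusted p = 0.809). PANK1, the first enzyme of coenzyme A synthesis, differed by 0.08 (adjusted p = 0.804), the tRNA modifying enzyme TRIT1 by 0.29 (adjusted p = 0.236), the monocarboxylate transporter SLC16A12 by -0.59 (adjusted p = 0.287) and the Notch target HEYL by 0.03 (adjusted p = 0.956). EVI5, a regulator of GTPase activity, differed by 0.17 (adjusted p = 0.422) and the palmitoyltransferase ZDHHC9 by 0.10 (adjusted p = 0.767). None of these 8 genes was past the threshold in lung of lowland chickens.

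Other groups of lung genes stayed short of it as well. Of the keratins, KRT20 differed by 0.44 (adjusted p = 0.36) and KRT15 by 0.13 (adjusted p = 0.784). Among cilium genes, AHI1 differed by 0.50 (adjusted p = 0.114), BBS2 by -0.51 (adjusted p = 0.109) and the dynein heavy chain DNAH5 by 0.19 (adjusted p = 0.765). The secreted phospholipase ENPP2, which makes lysophosphatidic acid, had 14.8, 9.97 and 11.8 FPKM in HLC libraries, against 78.9, 12.99 and 34.1 FPKM in LC libraries, a fold change of -1.38 with groups whose spread was wide (adjusted p = 0.267 from limma).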
